A study of Mus musculus with 2 samples.

Results

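The 8 genes described here, Barx1, Nkx3-2, Nkx2-5, Tlx1, Tcf21, Twist1, Meox2 and Wt1, encode transcription factors of the splanchnic mesenchyme, the mesoderm that wraps the developing gut and its organs. They were taken by name from the gene columns that the count tables of both libraries shared, and all 8 of them were found among 22023 shared genes. The cells came from mouse pancreas at stage E15.5, profiled as single cells. The Mettl3pKO library came from embryos in which Pdx1-expressing progenitors of the pancreas had lost Mettl3, and the WT library from wild-type embryos. Pdx1 marks the epithelial lineage, so the mesenchyme and the mesothelium lay outside the cells the design names for the deletion. The labels name neither the Cre line nor the deleted exons, nor how many embryos were pooled.

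The splanchnic mesenchyme forms the connective tissue, smooth muscle and serosa around the gut tube, and signals to the endoderm beneath it. Barx1, Nkx3-2, Nkx2-5 and Tlx1 are homeobox genes of the stomach and spleen mesenchyme next to the pancreas, where the spleen grows out from mesenchyme shared with the dorsal pancreas. The mesothelium is the epithelial sheet that covers these organs, and Wt1 is a marker of it that is also known from spleen and kidney. Mettl3 carries the catalytic site of the complex that places N6-methyladenosine in RNA.

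The Mettl3pKO library held 3624 complete cells with a median of 16481 UMIs (unique molecular identifiers, each standing for 1 captured RNA molecule), and the WT library 6384 cells with a median of 10824 UMIs. With 1 library per genotype no difference between them has a replicate check, and every interval below is a 95% interval that covers counting error only. Levels are UMIs of a gene per 1000000 UMIs summed over a class of cells (CPM). Cells were clustered with the 8 factors left out of the clustering genes, and a cluster was named from marker lists that also held none of them. Mesenchyme-like cells numbered 278 in Mettl3pKO and 1184 in WT, and mesothelium-like cells numbered 80 and 202. A cell with at least 5 UMIs of Col1a1, the main fibrillar collagen, was called Col1a1-positive, which took in all 278 and 1182 of the 1184 mesenchyme-like cells and every mesothelium-like cell. Upk3b, a mesothelial membrane protein, stood at 884.9 CPM in mesothelium-like and 2.56 CPM in mesenchyme-like cells of Mettl3pKO, and at 1381.9 and 0.980 CPM in WT. Pdgfra, a receptor of mesenchymal cells, stood at 11.9 CPM in mesothelium-like and 360.3 CPM in mesenchyme-like cells of Mettl3pKO, and at 7.01 and 374.3 CPM in WT. Upk3b, Pdgfra and Col1a1 were among the markers that named the clusters, so their values describe the classes and do not test the names. Mettl3 itself summed to 619 UMIs in Mettl3pKO and 1035 in WT over all kept cells, 9.42 against 13.99 CPM (ratio 0.673, 0.608 to 0.744), and in mesenchyme-like cells to 51 and 185 UMIs, 13.03 against 16.5 CPM (ratio 0.791, 0.568 to 1.08). In the epithelium its ratio was 0.825 in acinar-like cells (0.687 to 0.992; 7.53 against 9.12 CPM) and 0.651 in duct and trunk-like cells (0.504 to 0.833), and the ratio over all kept cells also holds the libraries' different mixes of classes. Reads outside the deleted part of Mettl3 check nothing about the deletion. The libraries shared 33 cell indexes.

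The genes lie on 7 chromosomes in the mm10 annotation (GENCODE vM21). Barx1 occupies chr13:48662998-48666507 on the plus strand, Tlx1 chr19:45150680-45156943 on the plus strand and Wt1 chr2:105126529-105173616 on the plus strand. Tcf21 occupies chr10:22817281-22820174 on the minus strand, and Nkx2-5 chr17:26838664-26845009 and Nkx3-2 chr5:41761483-41764501 also lie on the minus strand. Twist1 (chr12:33957671-33959829) and Meox2 (chr12:37108540-37179534) sit on the plus strand of the same chromosome. Tcf21 overlaps Gm10824 on the opposite strand, which held 1 UMI in Mettl3pKO and 12 in WT mesenchyme-like cells against 411 and 1089 of Tcf21, and Tlx1 overlaps the antisense gene Tlx1os, with 0 and 1 UMIs. Meox2 overlaps Gm48617 on its own strand, a gene that the tables do not both list. No source used here gives the strand setting of the authors' counting, so that reads of these overlapping pairs might be shared.

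Tcf21 and Twist1 are basic helix-loop-helix proteins, a family that binds the E-box, CANNTG, whose reverse complement is again CANNTG. The stretch from 250 to 51 bases before the RefSeq gene start (200 bases, build GRCm38.p6, sequences from RefSeq) was read for 7 of the factors, and held 1 E-box in Tlx1, Meox2, Nkx2-5 and Nkx3-2 and none in Barx1, Tcf21 and Twist1. The same stretch holds at least 1 in 59.05% of 32851 promoters. No stretch was available for Wt1. The 4 stretches shown are a selection, with the E-box in capitals. They are Barx1 (chr13:48662786-48662985, plus strand, 85% G and C), Tcf21 (chr10:22820194-22820393, minus strand, 54.5%), Tlx1 (chr19:45150465-45150664, plus strand, 62.0%) and Meox2 (chr12:37108290-37108489, plus strand, 66.0%), against a median of 51.5% G and C over all promoters.
Barx1: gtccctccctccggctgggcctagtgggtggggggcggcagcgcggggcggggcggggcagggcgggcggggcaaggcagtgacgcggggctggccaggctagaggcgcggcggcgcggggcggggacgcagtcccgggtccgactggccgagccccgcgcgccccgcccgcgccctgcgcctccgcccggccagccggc
Tcf21: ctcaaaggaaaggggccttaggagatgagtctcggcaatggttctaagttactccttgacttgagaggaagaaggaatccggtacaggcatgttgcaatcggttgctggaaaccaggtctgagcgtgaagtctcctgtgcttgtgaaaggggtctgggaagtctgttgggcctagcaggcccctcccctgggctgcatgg
Tlx1: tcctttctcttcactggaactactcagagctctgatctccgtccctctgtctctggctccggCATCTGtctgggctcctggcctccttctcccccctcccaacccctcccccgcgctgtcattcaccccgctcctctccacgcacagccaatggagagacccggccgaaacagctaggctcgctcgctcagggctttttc
Meox2: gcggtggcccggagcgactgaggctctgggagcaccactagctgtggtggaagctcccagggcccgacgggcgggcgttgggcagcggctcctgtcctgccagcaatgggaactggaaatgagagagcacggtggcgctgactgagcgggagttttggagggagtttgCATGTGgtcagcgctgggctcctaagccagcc

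The factors were mostly RNAs of the mesenchyme and the mesothelium, with Meox2 and a few Tlx1 UMIs also in vessel cells. Twist1 had 18 of its 270 WT UMIs in 16 of 1263 duct and trunk-like cells, 1.22 CPM (0.724 to 1.93). In Mettl3pKO it had 3 UMIs in the 442 cells of that class. In WT, 95.2% of 1144 Tcf21 UMIs, 88.5% of 139 Tlx1 UMIs, 82.2% of 270 Twist1 UMIs, 39 of 40 Nkx2-5 UMIs and 10 of 11 Nkx3-2 UMIs fell in mesenchyme-like cells. Barx1 was split between mesothelium-like and mesenchyme-like cells, with 34.7% and 61.8% of 1177 UMIs, and Wt1 was weighted to the mesothelium-like cells, with 63.3% and 35.05% of 1866 UMIs. Meox2, a homeobox gene of somites and blood vessels, placed 53.9% of its 167 WT UMIs in mesenchyme-like, 28.7% in endothelium-like and 14.4% in smooth muscle and pericyte-like cells. Its level was 60.0 CPM in the 11 endothelium-like cells of Mettl3pKO and 67.25 CPM in the 68 of WT, above the 10.7 and 8.02 CPM of mesenchyme-like cells. Tlx1 had 0 UMIs in those 11 Mettl3pKO cells and 7 UMIs in 5 of the 68 WT cells, 9.81 CPM (3.94 to 20.2).

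The level in acinar-like cells, an epithelial class that should lack these factors, served as the background from free RNA and admixed cells. It was 0.449 CPM for Barx1 in Mettl3pKO and 0.424 CPM in WT, 0.281 and 0.127 CPM for Tcf21, and 0.506 and 0.212 CPM for Wt1. A Barx1 UMI was seen in 0.870% of acinar-like cells of Mettl3pKO and 0.620% of WT, at median depths of 17827 and 12805 UMIs. The acinar-like levels lie far under the mesenchyme levels that follow, and for Wt1 and Barx1 under the mesothelium levels too. Other classes held more in Mettl3pKO. There, beta-like cells had Tcf21 at 6.57 CPM (18 UMIs in 14 of 161 cells) and Barx1 at 4.02 CPM. Macrophage-like cells of Mettl3pKO had Tcf21 at 6.24 CPM. In WT beta-like cells Tcf21 stood at 0.246 CPM. The Tcf21 level of Mettl3pKO mesothelium-like cells, 8.15 CPM (4.07 to 14.6), is close to these 2 Mettl3pKO classes. Smooth muscle and pericyte-like cells held Twist1 at 50.2 CPM in Mettl3pKO (12 UMIs in 16 cells) and 32.2 CPM in WT (20 UMIs in 57 cells), and Tcf21 at 46.0 and 54.8 CPM.

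In Mettl3pKO, part of the mesenchymal RNA lay outside the named classes. A cluster left unnamed, with 185 Mettl3pKO and 8 WT cells and led by Fabp7, Onecut2 and Gdf10, also had Tcf21 among its leading genes. Unnamed cells held 27.2% of the 647 Tcf21 UMIs, 30 of the 125 Twist1 UMIs and 19.7% of the 629 Barx1 UMIs of Mettl3pKO, and 190 of its 493 unnamed cells were Col1a1-positive. The median doublet score of that cluster was 0.128, against 0.0122 to 0.0256 in the 3 mesenchyme clusters, and the doublet caller marked 1 cell in the whole Mettl3pKO library, so the caller had not worked there and doublets were not removed. Of the marker lists, the mesenchyme list matched that cluster best. It was left unnamed by a rule that named no cluster with a median doublet score above 0.1. The rule kept its 185 Mettl3pKO and 8 WT cells out of the mesenchyme-like class. The part of doublets in that cluster was not tested.

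Of the 8 factors, 6 passed a 1.5-fold difference between mesothelium-like and mesenchyme-like cells in the same direction in both libraries. The shares over all genes below are per library, and no share for both libraries together stands beside this count. Wt1 and Barx1 were higher in mesothelium-like cells, and Tcf21, Tlx1, Twist1 and Meox2 were lower there. A gene was counted as different where the ratio was at least 1.5-fold and at least 20 UMIs lay on both sides together. By that rule 2 of 6 measured factors were higher and 4 lower in Mettl3pKO, where 23.1% of 11514 genes were higher and 20.6% lower. In WT 2 of 7 were higher and 5 lower, where 22.6% of 12551 genes were higher and 20.2% lower, and the added factor was Nkx2-5. The median log2 ratio of the measured factors was -2.85 in Mettl3pKO and -3.87 in WT, against 0.01 and 0.02 over all measured genes.

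**Figure D1:**
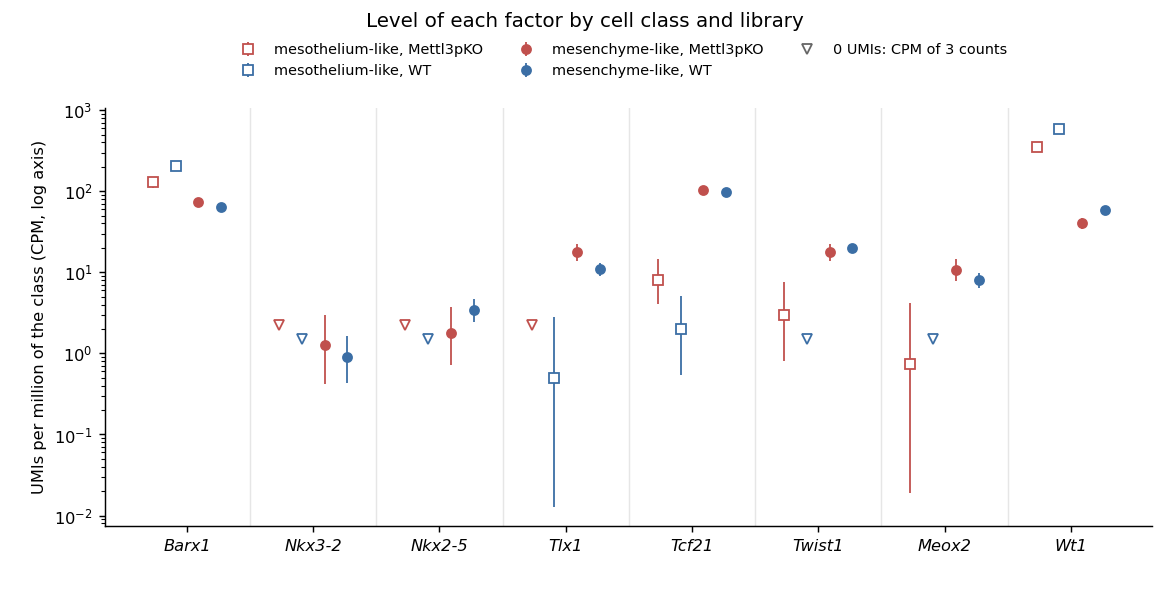
Level of each of the 8 factors in CPM (log axis) in mesothelium-like cells (open squares) and mesenchyme-like cells (filled circles) of Mettl3pKO (red) and WT (blue), with exact Poisson 95% intervals; an open triangle stands at the CPM of 3 counts where a class held 0 UMIs. Wt1 reaches 350.3 CPM in Mettl3pKO and 590.9 CPM in WT mesothelium-like cells, and Tcf21 stands at 105 and 97.01 CPM in mesenchyme-like cells, while Nkx3-2 and Nkx2-5 lie lowest, at 3.47 CPM or less.

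Wt1, the zinc-finger factor of the mesothelium, had 473 UMIs in mesothelium-like and 157 in mesenchyme-like cells of Mettl3pKO, 350.3 against 40.1 CPM, an 8.73-fold higher level (7.27 to 10.5). In WT it had 1181 and 654 UMIs, 590.9 against 58.3 CPM, a 10.1-fold higher level (9.21 to 11.2). Wt1 was found in nearly every mesothelium-like cell, 78 of 80 in Mettl3pKO and 198 of 202 in WT, with up to 19 and 28 UMIs in a cell. Barx1, known for the stomach mesenchyme, where it restrains Wnt signalling, had 175 and 292 UMIs in Mettl3pKO, 129.6 CPM in mesothelium-like against 74.6 CPM in mesenchyme-like cells, a 1.74-fold higher level (1.43 to 2.10). In WT the Barx1 levels were 204.1 and 64.8 CPM from 408 and 727 UMIs, a 3.15-fold higher level (2.79 to 3.56). The plot of levels by class shows both genes above their mesenchyme level in either library. A second clustering of these cells alone gave 3 sub-clusters led by acinar, red blood cell or islet genes, and without them the Barx1 ratio was 2.41 in Mettl3pKO (1.94 to 2.99) and 3.11 in WT (2.75 to 3.52), with overlapping intervals.

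Tcf21, a helix-loop-helix factor that visceral mesenchyme and spleen need, had 11 UMIs in mesothelium-like and 411 in mesenchyme-like cells of Mettl3pKO, 8.15 against 105 CPM and 12.9-fold lower (7.13 to 26.0). In WT it had 4 and 1089 UMIs, 2.00 against 97.01 CPM and 48.5-fold lower (18.9 to 178). Few mesothelium-like cells held it, 6 of 80 in Mettl3pKO and 4 of 202 in WT. The Mettl3pKO level in mesothelium-like cells was near that of Mettl3pKO beta-like cells (6.57 CPM). Twist1, a helix-loop-helix regulator of mesoderm, had 4 UMIs in mesothelium-like and 69 in mesenchyme-like cells of Mettl3pKO (5.95-fold lower, 2.22 to 22.5). In WT it had 0 and 222 UMIs, which makes it at least 13.2-fold lower when the empty class is set to 3 counts. Tlx1, the homeobox gene without which mice form no spleen, had 0 and 70 UMIs in Mettl3pKO (at least 8.05-fold lower by the same floor) and 1 and 123 UMIs in WT (21.9-fold lower, 3.86 to 872). Without the sub-clusters led by another cell type, which left 50 mesothelium-like and 262 mesenchyme-like cells of Mettl3pKO, the ratio was 0.129 for Tcf21 (0.0614 to 0.240) and 0.305 for Twist1 (0.0808 to 0.819). For Meox2, described next, it was 0.122 (0.00301 to 0.716), and for Wt1 11.25 (9.28 to 13.7).

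Meox2 had 1 UMI in mesothelium-like and 42 in mesenchyme-like cells of Mettl3pKO (14.5-fold lower, 2.46 to 585.9), and 0 and 90 UMIs in WT (at least 5.34-fold lower). Nkx2-5, the cardiac homeobox gene that also marks the spleen primordium and the pylorus, had 0 and 7 UMIs in Mettl3pKO and 0 and 39 UMIs in WT (at least 2.32-fold lower in WT). Nkx3-2, which keeps spleen and pancreas mesenchyme apart, had 0 UMIs in mesothelium-like cells of either library against 5 in Mettl3pKO and 10 in WT mesenchyme-like cells. For Nkx3-2 no difference between the classes was detectable at this depth. Fewer than 20 UMIs of it were held by any pair of classes compared here, so it enters no count of differences.

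Other factors of the gut and limb mesenchyme and the signals around them were counted in the same way; unlike the 8 factors, these genes were open to the clustering, so that their values describe the classes. Their counts stand beside the shares over all genes, 23.1% higher and 20.6% lower in Mettl3pKO and 22.6% and 20.2% in WT. Of 47 other mesenchyme factors, 39 were measured in Mettl3pKO, with 10 higher and 23 lower in mesothelium-like cells, and 41 in WT, with 12 higher and 21 lower. Osr2, an odd-skipped zinc-finger factor, had 14 UMIs in mesothelium-like and 1340 in mesenchyme-like cells of Mettl3pKO (33.0-fold lower, 19.6 to 60.6) and 1 and 4791 UMIs in WT (853-fold lower, 153 to 33700.4). Prrx1, a homeobox gene of limb and body wall mesenchyme, was 30.3-fold lower in Mettl3pKO (19.3 to 50.4) and 165.3-fold lower in WT (70.8 to 509.2). Lhx9, a LIM homeobox gene, was 27.7-fold higher in mesothelium-like cells of Mettl3pKO (12.8 to 71.6) and 127.9-fold higher in WT (66.1 to 283.8). Nkx2-3, a homeobox gene of spleen and gut mesenchyme, had 1 and 317 UMIs in Mettl3pKO (109.4-fold lower, 19.5 to 4334) and 18 and 810 UMIs in WT (8.01-fold lower, 5.04 to 13.6), and Ebf1, an early B-cell factor, 1 and 2337 UMIs in WT (416.1-fold lower, 74.6 to 16442.3).

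Of 33 genes of the Hedgehog, BMP, FGF, Wnt and retinoic acid signals, 27 were measured in Mettl3pKO, with 9 higher and 14 lower in mesothelium-like cells, and 29 in WT, with 12 higher and 10 lower. Aldh1a2, which makes retinoic acid, was 21.3-fold higher in mesothelium-like cells of Mettl3pKO (16.8 to 27.3) and 39.9-fold higher in WT (34.8 to 45.9). Fgf9, a growth factor that the mesothelium of the lung makes, was 26.6-fold higher in Mettl3pKO (11.5 to 75.5) and had 145 UMIs in mesothelium-like against 1 in mesenchyme-like cells of WT (814.4-fold higher, 143.9 to 32385). Rspo1, a Wnt co-activator that was among the mesothelium markers, was 24.8-fold and 30.1-fold higher. Grem1, a BMP antagonist, had 1 UMI in mesothelium-like and 31 in mesenchyme-like cells of Mettl3pKO (10.7-fold lower, 1.78 to 436), and Hhip, which binds Hedgehog ligands, was 17.65-fold higher in mesothelium-like cells of WT (10.7 to 30.4). In Mettl3pKO, Hhip was counted as neither higher nor lower between the classes.

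Within the mesenchyme, Meox2, Wt1, Tlx1, Tcf21 and Barx1 differed in level between sub-clusters. Tcf21, Barx1, Tlx1 and Twist1 were found in all 6 that both libraries shared. Clustering the mesenchyme-like and mesothelium-like cells alone gave 11 sub-clusters, of which 6 were mesenchymal and present in both libraries, 1 was mesothelial, 1 was mesenchymal with interferon-response genes and only WT cells, and 3 were led by acinar, red blood cell or islet genes. Meox2 peaked in sub-cluster 7, with Lepr, Cxcl13 and Mgp among its leading genes, at 90.2 CPM in 14 Mettl3pKO cells and 79.8 CPM in 55 WT cells. In the other 5 of these sub-clusters it stood between 0 and 13.1 CPM in Mettl3pKO and between 2.02 and 11.4 CPM in WT. The same sub-cluster held Tcf21 at 180.4 CPM in Mettl3pKO and 171.3 CPM in WT, its highest level in either library, and Barx1 at 111 and 128.5 CPM. Of the 6 mesenchymal sub-clusters Wt1 was lowest in this one, with 0 UMIs in Mettl3pKO and 9 in WT (17.5 CPM).

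**Figure D2:**
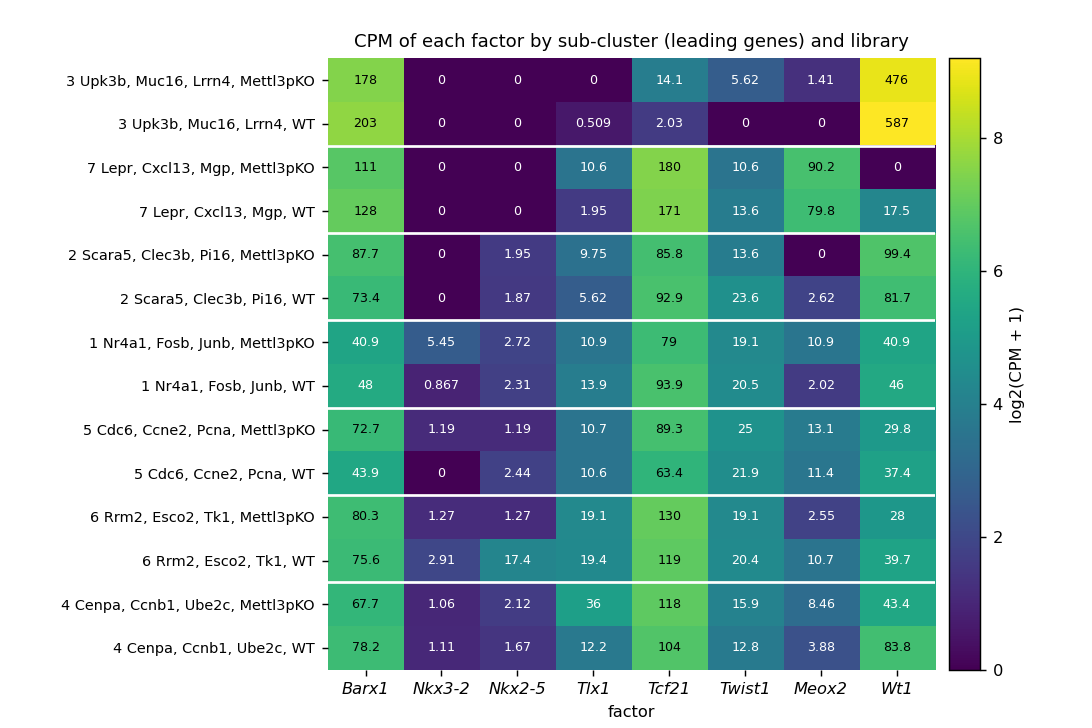
CPM of each factor (printed in each cell, colour log2(CPM + 1)) in the mesothelial sub-cluster 3 and the 6 mesenchymal sub-clusters found in both libraries, with 3 of the leading genes of each and Mettl3pKO above WT. Meox2 is concentrated in sub-cluster 7 (90.2 and 79.8 CPM), Wt1 is highest in sub-cluster 3 (476.4 and 587.4 CPM), and Tcf21 is found in every mesenchymal sub-cluster at 63.4 CPM or more.

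Wt1 within the mesenchyme was highest in sub-cluster 2 of Mettl3pKO, at 99.4 CPM in 38 cells, and stood at 81.7 CPM in the 297 WT cells of that sub-cluster, which is led by Scara5, Clec3b and Pi16, genes known from adventitial fibroblasts. Sub-cluster 4, of cells with G2 and M phase genes such as Ccnb1, had 43.4 CPM in Mettl3pKO and 83.8 CPM in WT. Tlx1 was highest in that same sub-cluster 4 in Mettl3pKO, at 36.0 CPM (34 UMIs in 67 cells), against 12.2 CPM in WT (22 UMIs in 165 cells). In WT its highest level was 19.4 CPM in sub-cluster 6, led by the S phase gene Rrm2, where Mettl3pKO had 19.1 CPM. Nkx2-5 was scattered at 1.19 to 2.72 CPM in the 5 mesenchymal sub-clusters of Mettl3pKO that held it. In WT, 18 of its 39 UMIs lay in the 99 cells of sub-cluster 6, at 17.4 CPM, and none in sub-cluster 7. Twist1 was spread over all 6 sub-clusters, between 10.6 and 25.02 CPM in Mettl3pKO and between 12.8 and 23.6 CPM in WT.

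To compare cells of unequal depth, each cell was thinned to 7150 UMIs, which left 278 and 1063 Col1a1-positive mesenchyme-like cells and 80 and 183 mesothelium-like cells in Mettl3pKO and WT, with 119 and 19 shallower WT cells left out. Tcf21 was then seen in 45.7% of mesenchyme-like cells of Mettl3pKO (39.7 to 51.7) and 41.1% of WT (38.1 to 44.1). Barx1 was seen in 32.7% (27.25 to 38.6) and 28.3% (25.6 to 31.1). Both intervals overlap between the libraries. Tlx1 was seen in 12.95% of Mettl3pKO cells (9.24 to 17.5) and 7.24% of WT cells (5.76 to 8.97), and Wt1 in 18.35% (13.98 to 23.4) and 26.5% (23.9 to 29.3), so that these were the 2 factors whose intervals did not overlap. Twist1 was seen in 11.9% and 11.8%, Meox2 in 5.04% and 4.23%, Nkx2-5 in 1.799% and 1.976%, and Nkx3-2 in 0.360% and 0.470%. Without thinning the shares were 68.35% and 48.4% for Tcf21, 39.2% and 31.4% for Barx1, 29.9% and 29.4% for Wt1 and 19.1% and 9.22% for Tlx1.

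Most mesenchyme-like cells showed at least 1 factor, and no factor was detected in all of them. After thinning, 79.9% of Mettl3pKO cells (74.65 to 84.4) and 75.2% of WT cells (72.45 to 77.7) held at least 1 of the 8, and 37.4% (31.7 to 43.4) and 35.1% (32.2 to 38.04) held 2 or more. The most in a cell was 4 in Mettl3pKO, in 8 cells, and 5 in WT, in 1 cell. After no factor detected, Tcf21 alone was the commonest combination at this depth, in 18.35% of Mettl3pKO and 14.8% of WT cells. Barx1 alone came to 10.8% and 9.31%, and Barx1 with Tcf21 to 8.99% and 6.68%. Wt1 alone came to 6.12% and 9.50%, and Wt1 with Tcf21 to 3.60% and 6.02%. Tlx1 alone came to 3.24% (9 of 278 cells) and 1.22% (13 of 1063), and Tlx1 with Tcf21 to 3.24% and 1.60%. These combinations depend on depth, and a factor not detected may still be present. Without thinning, no factor was detected in 8.27% of Mettl3pKO and 19.7% of WT cells, and Tcf21 alone in 16.9% and 15.2%.

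**Figure D3:**
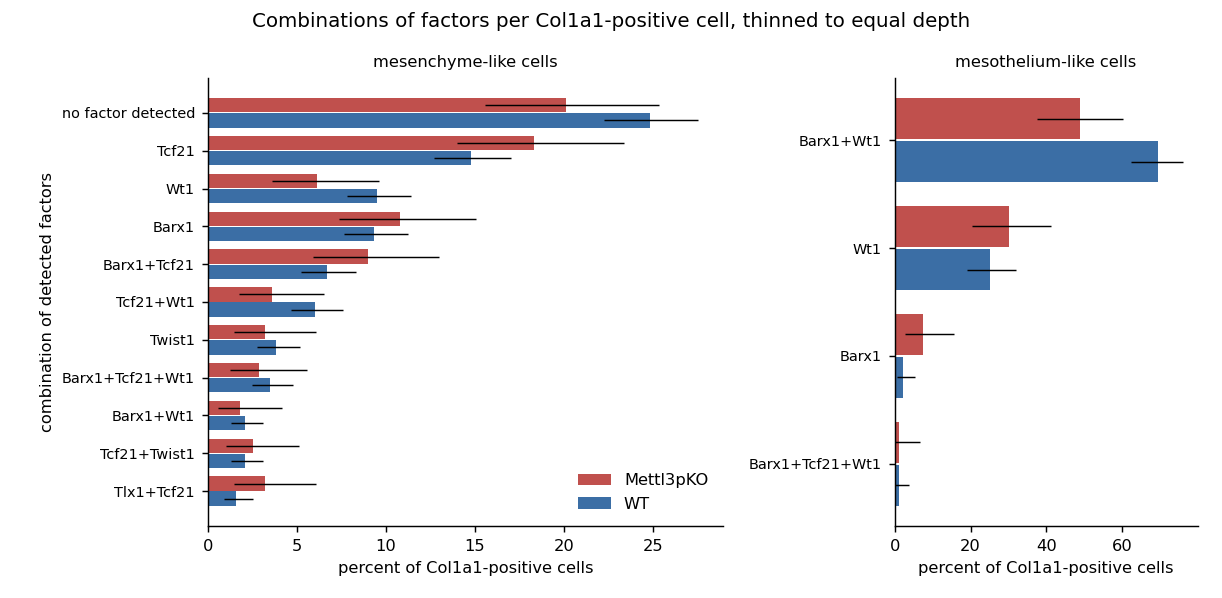
Percent of Col1a1-positive cells, thinned to equal depth, that held each combination of factors, for the 11 commonest combinations in WT mesenchyme-like cells and the 4 commonest in mesothelium-like cells, with Mettl3pKO in red above WT in blue and exact binomial 95% intervals. No factor detected is the commonest state in mesenchyme-like cells (20.1% and 24.8%), and Barx1 with Wt1 is the commonest in mesothelium-like cells (48.75% and 69.4%).

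Mesothelium-like cells carried a narrower set. Wt1 was seen in 64 of the 80 thinned Mettl3pKO cells (80%, 69.6 to 88.1) and 96.7% of the WT cells (93.0 to 98.8), and Barx1 in 58.75% (47.2 to 69.65) and 72.7% (65.6 to 78.99). Barx1 with Wt1 and no other factor made up 48.75% of Mettl3pKO cells (37.4 to 60.2) and 69.4% of WT cells (62.2 to 75.98). Of cells with Barx1, 40 of 47 in Mettl3pKO and 129 of 133 in WT also held Wt1. No factor was seen in 8 of 80 Mettl3pKO cells (10%, 4.42 to 18.8) and 2 of 183 WT cells (1.09%, 0.133 to 3.89). Tlx1, Twist1, Meox2, Nkx2-5 and Nkx3-2 were in none of the thinned cells of this class, where counting error allows a share of cells with a UMI at this depth of up to 4.51% in Mettl3pKO and 1.996% in WT. Without thinning, Twist1 was in 4 and Meox2 in 1 of the 80 Mettl3pKO cells, and Tlx1 in 1 of the 202 WT cells. Of the 80 Mettl3pKO cells of this class, 30 lay in sub-clusters led by acinar or islet genes, against 2 of the 202 WT cells. In the mesothelial sub-cluster, not thinned, Wt1 was in all 50 Mettl3pKO and 196 of 200 WT cells, and Barx1 in 42 of 50 and 166 of 200. The part of the admixed epithelial RNA in the thinned shares was not tested.

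Pairs of factors in the same mesenchyme-like cell differed in how often they met, and Wt1 was rare beside Meox2. Before thinning, Wt1 was seen in 1 of 21 Meox2-positive cells of Mettl3pKO (4.76%, 0.121 to 23.8) and in 82 of 257 cells without Meox2 (31.9%, 26.25 to 37.98). In WT it was seen in 3 of 50 Meox2-positive cells (6%, 1.26 to 16.55) and in 344 of 1132 cells without Meox2 (30.4%, 27.7 to 33.2). Before thinning the intervals do not overlap in either library. The pair was singled out after its values were seen. After thinning the counts were 0 of 14 in Mettl3pKO and 3 of 45 in WT. Wt1 was then in 18.35% of all mesenchyme-like cells of Mettl3pKO (13.98 to 23.4) and 26.5% of WT (23.9 to 29.3). With only 14 Meox2-positive cells, the Mettl3pKO intervals with and without Meox2 overlap at that depth. Twist1-positive cells held Wt1 in 11 of 55 Mettl3pKO cells (20%) and 37 of 168 WT cells (22.0%), against 32.3% and 30.6% of cells without Twist1, with overlapping intervals. Nkx2-5-positive cells were few, and Wt1 was in 4 of 7 of them in Mettl3pKO and 15 of 30 in WT (50.0%, 31.3 to 68.7), against 29.2% and 28.8% of cells without Nkx2-5.

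**Figure D4:**
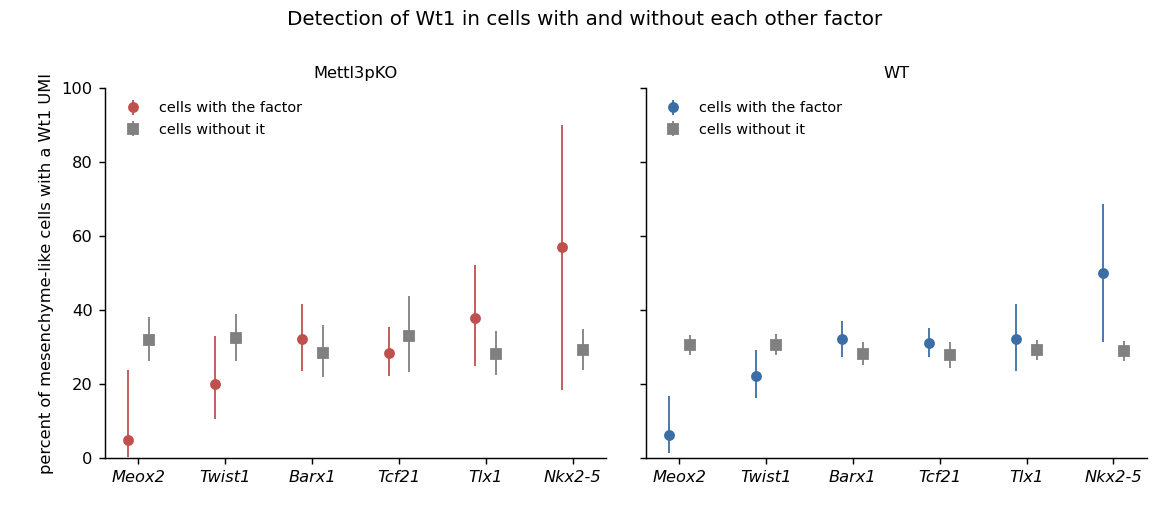
Percent of mesenchyme-like cells with a Wt1 UMI, not thinned, among cells with each other factor (circles) and cells without it (squares), in Mettl3pKO (left) and WT (right), with exact binomial 95% intervals. Among Meox2-positive cells Wt1 was seen in 4.76% in Mettl3pKO and 6% in WT, far under the cells without Meox2 (31.9% and 30.4%).

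Barx1 and Tcf21, seen in the largest shares of cells, met in 47.25% of Barx1-positive cells of Mettl3pKO (36.7 to 58.0) and in 44.9% of cells without Barx1 (37.65 to 52.35), after thinning. In WT the shares were 46.5% (40.8 to 52.3) and 38.98% (35.5 to 42.5). Tlx1 was seen in 8.79% of Barx1-positive and 14.97% of Barx1-negative cells of Mettl3pKO, and in 6.31% and 7.61% in WT. All of these intervals overlap. A cell's factors share its depth, and before thinning the WT shares of Tcf21 were 55.8% with Barx1 (50.6 to 60.9) and 45.0% without it (41.5 to 48.5).

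The genes most raised beside each factor in WT were named for 6 factors by the lower bound of the ratio of CPM in factor-positive over factor-negative mesenchyme-like cells. They were chosen on the WT ratios, which are therefore a description, while the Mettl3pKO ratios were not used. Mgp, the matrix Gla protein that inhibits calcification, went with Meox2 (2.35-fold in Mettl3pKO, 7.62-fold in WT), Barx1 (2.43 and 3.58) and Tcf21 (1.46 and 2.11). Acta2, smooth muscle actin, went with Meox2 (2.62 and 3.24), as did the long noncoding RNA Gm26917 (9.45 and 5.41). The Mettl3pKO ratios beside Meox2 rest on 14 Meox2-positive cells, under the 30 required in WT. Those cells held 54 UMIs of Mgp, 87 of Acta2 and 79 of Gm26917. Sfrp2, a secreted Wnt inhibitor, went with Barx1 (1.61 and 2.62) and Twist1 (1.78 and 1.61), and Stmn2, a microtubule regulator, with Barx1 (4.20 and 2.96). Gucy1a1, a subunit of the nitric oxide receptor, went with Tcf21 (1.56 and 2.45), as did Efna5 (1.37 and 2.26).

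Beside Tlx1 stood Birc5 (1.62-fold in Mettl3pKO, 1.76-fold in WT), Smc4 (1.38 and 1.69) and Arl6ip1 (1.69 and 1.68). Beside Wt1 stood Scara5 (1.22 and 2.94), Enpp2 (1.71 and 2.63) and Adamts16 (0.969 and 3.73). Gm26917 (0.223 and 2.25) and Igf1 (0.939 and 1.26) stood beside Twist1. These 3 genes, Adamts16, Gm26917 beside Twist1 and Igf1, had ratios under 1 in Mettl3pKO, that of Gm26917 from 7 UMIs in Twist1-positive cells. The Mettl3pKO intervals include 1 for all 3 genes beside Wt1: Scara5 (0.656 to 2.15), Enpp2 (0.953 to 2.96) and Adamts16 (0.589 to 1.53). They also include 1 for Efna5 beside Tcf21 (0.830 to 2.29) and Igf1 beside Twist1 (0.826 to 1.07). Of the 18 pairs named, 11 were named again when the thinning was drawn anew, with Smc4 the 1 gene named again beside Tlx1.

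Mettl3pKO and WT mesenchyme-like cells differed little in most of the factors. Of 7 factors with at least 20 UMIs, Tlx1 was higher by at least 1.5-fold, Nkx2-5 was lower, and 5 lay within the fold, while 8.32% of 12445 genes were higher and 6.21% lower. The median log2 ratio was 0.12 for the factors and 0.01 for all measured genes. More of the Mettl3pKO cells were called proliferating: 204 of 278 (73.4%) had at least 2 UMIs over 9 cell cycle genes after thinning, against 476 of 1064 in WT (44.7%). Free RNA can enter such a call, and its part was not tested. The cluster led by cell cycle genes held 152 of the 278 Mettl3pKO cells, and the cluster led by Ogn, Fgf10 and Postn 614 of the 1184 WT cells. The libraries also differed in sex: cells with a Y-linked UMI and no Xist were 66.2% of Mettl3pKO and 33.0% of WT mesenchyme-like cells. The part of these differences in the ratios that follow was measured only by splitting the cells.

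Tlx1 had 70 UMIs in Mettl3pKO and 123 in WT mesenchyme-like cells, 17.9 against 10.96 CPM, a ratio of 1.63 (1.20 to 2.21). Proliferating cells had 1.48 (1.02 to 2.14) and other cells 1.56 (0.772 to 2.94), while cells with Xist had 1.91 (0.965 to 3.49) and cells with Y-linked RNA 1.46 (0.921 to 2.33). In sub-cluster 4, of G2 and M phase cells, the ratio was 2.95 (1.67 to 5.29). In the sub-clusters 5 and 6, of S phase cells, it was 1.01 (0.383 to 2.57) and 0.986 (0.470 to 2.03), and in sub-cluster 1 it was 0.786 (0.206 to 2.15), from 4 and 48 UMIs. Cycling cells had more Tlx1 than other cells in WT, 13.25 against 8.32 CPM (ratio 1.59, 1.08 to 2.38), and in Mettl3pKO 19.6 against 12.97 CPM (1.51, 0.817 to 3.01).

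Wt1 had 157 UMIs in Mettl3pKO and 654 in WT mesenchyme-like cells, 40.1 against 58.3 CPM, a ratio of 0.689 (0.575 to 0.821) that stopped short of the 1.5-fold difference. The ratio was 0.603 in proliferating cells (0.471 to 0.766; 31.95 against 53.01 CPM) and 1.01 in the other cells (0.759 to 1.32; 63.85 against 63.4 CPM). Within Mettl3pKO, proliferating cells had 0.5004 times the Wt1 of other cells (0.360 to 0.699), and within WT 0.836 times (0.710 to 0.985). The intervals of the proliferating and the other cells touch, and the difference between them was not tested. In sub-cluster 4 the ratio was 0.518 (0.357 to 0.735). In sub-clusters 2, 1, 5 and 6 it was 1.22 (0.879 to 1.66), 0.889 (0.486 to 1.51), 0.797 (0.469 to 1.32) and 0.706 (0.4003 to 1.21), intervals that include 1. By sex the ratio was 0.446 in cells with Xist, from 17 and 369 UMIs, and 0.716 in cells with Y-linked RNA.

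Barx1 had 292 and 727 UMIs, 74.6 CPM in Mettl3pKO against 64.8 CPM in WT, a ratio of 1.15 (1.00 to 1.32). It was 1.01 in cells with Xist and 1.59 in cells with Y-linked RNA (1.28 to 1.97), a difference that was not tested. In sub-cluster 5, of S phase cells, the ratio was 1.66 (1.13 to 2.43), from 61 and 54 UMIs. In sub-clusters 1, 2, 4, 6 and 7 it lay between 0.852 and 1.19, with intervals that include 1. In WT, Barx1 stood at 76.75 CPM in the 636 Xist cells and 45.4 CPM in the 391 Y-linked cells (ratio 1.69, 1.41 to 2.03), and in Mettl3pKO at 77.8 and 72.0 CPM (1.08, 0.772 to 1.49). Nkx2-5 had 7 UMIs in Mettl3pKO and 39 in WT, 1.79 against 3.47 CPM, a ratio of 0.515 (0.194 to 1.16) whose interval includes 1. It was 0.672 with the Scrublet-marked cells kept and 1.35 in cells that were not proliferating, from 3 and 12 UMIs. In WT, 33 of its UMIs lay in Xist cells and 3 in Y-linked cells (ratio of CPM 6.56, 2.06 to 33.4), while Mettl3pKO had 1 and 2. Both kinds of cell were present in each library, and the sex of a cell and the embryo it came from cannot be told apart here.

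Tcf21 had 411 and 1089 UMIs, 105 CPM in Mettl3pKO against 97.01 CPM in WT, a ratio of 1.08 (0.964 to 1.21). It was 1.16 in proliferating and 0.988 in other cells. In cells with Xist it was 1.32 (1.05 to 1.65), and cells with Y-linked RNA held 97.3 against 91.3 CPM. In sub-cluster 5 it was 1.41 (1.01 to 1.96). In sub-clusters 1, 2, 4, 6 and 7 it lay between 0.841 and 1.14, with intervals that include 1. Twist1 had 69 and 222 UMIs, 17.6 against 19.8 CPM, a ratio of 0.892 (0.670 to 1.17). It was 1.24 in proliferating cells and 0.475 in the other cells (0.231 to 0.880), a value from 11 and 125 UMIs. Meox2 had 42 and 90 UMIs, 10.7 against 8.02 CPM, a ratio of 1.34 (0.905 to 1.95), and within sub-cluster 7, where it is concentrated, 1.13 (0.602 to 2.03). Nkx3-2 had 5 and 10 UMIs, too few to compare. The ratio plot shows that in mesenchyme-like cells the intervals of Tlx1 and Wt1 leave out 1. That of Barx1 begins at 1.00, and among other settings it includes 1 with the stricter cell filter (1.05, 0.904 to 1.21), with Scrublet-marked cells kept, at Leiden resolution 2.0 and without the sub-clusters led by another cell type (1.13, 0.982 to 1.31).

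**Figure D5:**
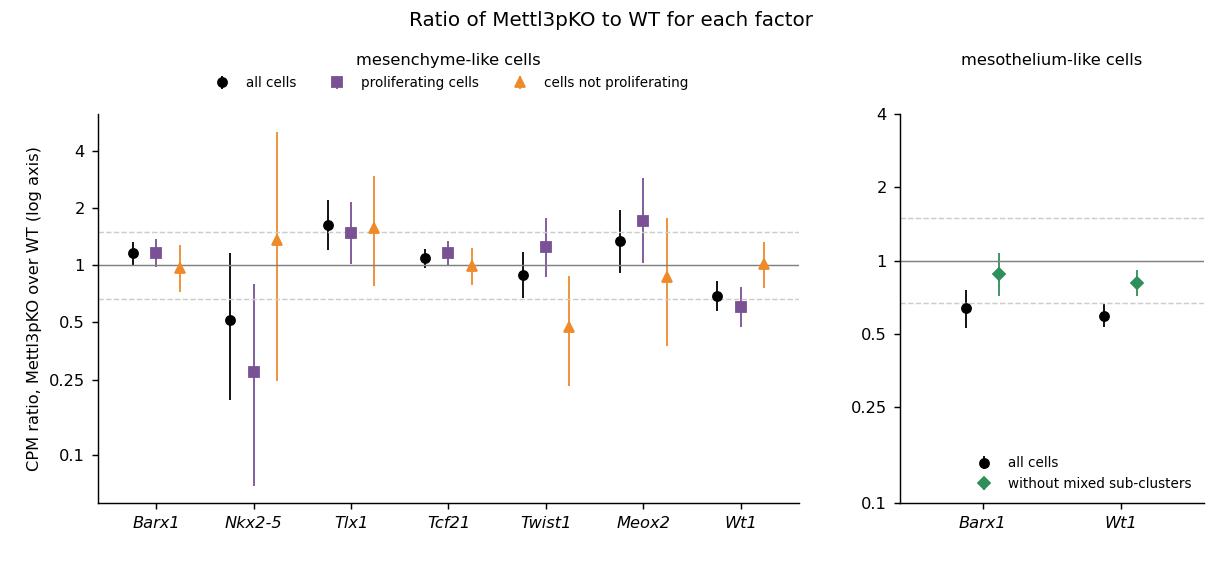
Ratio of CPM, Mettl3pKO over WT (log axis, exact 95% intervals), for 7 factors in mesenchyme-like cells (left: all cells, proliferating cells and other cells) and for Barx1 and Wt1 in mesothelium-like cells (right: all cells and cells without the sub-clusters led by another cell type); the solid line is a ratio of 1 and the broken lines are 1.5-fold. Wt1 stands at 0.603 in proliferating and 1.01 in other mesenchyme-like cells, and at 0.593 and 0.811 in mesothelium-like cells before and after the sub-clusters are left out.

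Among the other mesenchyme factors 40 of 47 were measured between the libraries in mesenchyme-like cells, 3 higher and 1 lower, with a median log2 ratio of -0.02, where 8.32% of all genes were higher and 6.21% lower. Six2, a homeobox gene, had 34 UMIs in Mettl3pKO and 25 in WT (ratio 3.90, 2.26 to 6.82), Gata4, a zinc-finger factor of mesothelium and heart, had a ratio of 2.33 (1.39 to 3.87), Foxf1, a Hedgehog target in gut mesenchyme, 2.10 (0.874 to 4.90), and Nr2f1, a nuclear receptor, 0.389 (0.215 to 0.658). Of the signals 28 of 33 were measured, 1 higher and 2 lower, with a median of -0.04. Id1, a target of BMP signals, had a ratio of 1.92 (1.64 to 2.25), Bmp2 of 0.563 (0.266 to 1.09), Bmp5 of 0.633 (0.4175 to 0.934) and Rspo1 of 0.700 (0.413 to 1.14). Most of the factors and signals in both lists, like most genes, lay within the fold.

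In mesothelium-like cells Barx1 and Wt1 were the factors with enough UMIs to compare, and both were lower in Mettl3pKO, where 14.2% of 10877 genes were higher and 13.4% lower. Wt1 stood at 350.3 CPM in Mettl3pKO and 590.9 CPM in WT, a ratio of 0.593 (0.532 to 0.660). Barx1 stood at 129.6 and 204.1 CPM, a ratio of 0.635 (0.529 to 0.760). The Mettl3pKO cells of this class also held much more epithelial RNA: the 8 acinar markers, none at 0, summed to 11889.7 CPM in Mettl3pKO and 1393.4 CPM in WT, and the 8 beta cell markers to 9322.3 and 240.2 CPM, with 0 and 2 of them at 0. The median doublet score was 0.0732 in Mettl3pKO and 0.00608 in WT. Proliferating cells made up 63.75% of the class in Mettl3pKO and 28.96% in WT, after thinning. Cells with a Y-linked UMI and no Xist made up 65% and 34.16%. Barx1 in Xist over Y-linked cells had a ratio of 1.082 (0.730 to 1.573) in Mettl3pKO and 1.385 (1.098 to 1.755) in WT. In proliferating over other cells it had 1.492 (1.067 to 2.115) and 1.159 (0.934 to 1.435). The part of these differences was not tested. The sub-clusters led by acinar and islet genes held 22 and 8 of the 80 Mettl3pKO cells, and 2 and 0 of the 202 WT cells.

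Without those sub-clusters, 50 Mettl3pKO and 200 WT cells remained, and neither factor passed the 1.5-fold difference. Wt1 then stood at 476.4 CPM in Mettl3pKO and 587.4 CPM in WT, a ratio of 0.811 (0.716 to 0.916), and Barx1 at 178.5 and 202.9 CPM, a ratio of 0.880 (0.715 to 1.08). Tcf21 remained at 14.05 CPM in Mettl3pKO and 2.03 CPM in WT there, from 10 and 4 UMIs, and Twist1 at 4 UMIs against 0. Markers that define the class were lower in the Mettl3pKO cells too, before the sub-clusters were left out: the ratio was 0.425 for Bnc1, 0.488 for Msln and 0.5465 for Muc16. Other mesenchyme factors numbered 4 higher and 9 lower of 33 measured, beside 14.2% and 13.4% of all genes, with Prrx1 and Zeb2 at 5.62 each (2.03 to 19.3) and Foxf1 at 0.382 (0.2505 to 0.567). Of 24 signals measured, 4 were higher and 13 lower, with Rspo3 at 0.185 (0.0924 to 0.338), Crabp1 at 0.205 (0.118 to 0.337), Hhip at 0.224 (0.103 to 0.439) and Sfrp2 at 0.335 (0.289 to 0.387). The part of the admixed epithelial RNA in those list counts was not tested.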

How the data were processed

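Values are UMI counts per gene and cell; per the file headers the authors made the deposited count tables with the BD WTA Rhapsody Analysis Pipeline 1.8, and mm10 and Seurat come from the submitters' processing notes. No source used here gives the aligner, the strand setting or the authors' filters. The last cell of each table was incomplete and was left out. Cells under 200 genes or over 25% of mitochondrial UMIs were removed and likewise Scrublet-marked cells (342 in WT and 1 in Mettl3pKO, where the caller had not worked), leaving 3622 Mettl3pKO and 6030 WT cells. Clustering used scanpy 1.11.5 (2000 variable genes without the 8 factors, 30 components, 15 neighbours, Leiden resolution 1.0, 30 clusters; 0.6 for sub-clusters) and names came from 20 marker lists. A cluster stayed unnamed if its median doublet score was above 0.1, or if more of its leading genes came from another list than from its own. UMIs were summed per class and library. With 1 library per genotype no test was possible; intervals are exact (Poisson, conditional binomial, Clopper-Pearson) with SciPy 1.17.1. The procedure was tested on simulated data. The 8 genes and every list were chosen with earlier results of these data known. All 8 factors are named, from each list up to 4 genes with the ratio farthest from 1, and 3 companions per factor; 1 gene that this rule names is not reported here. In summed counts, fewer cells with a factor and less RNA per cell cannot be told apart; the shares of cells are given for that reason. Shallow cells may be missing, as the lowest held 10719 UMIs in Mettl3pKO and 3803 in WT.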

Additional observations from a re-analysis of the deposited data

Results flagged for a closer look

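Barx1 stood at 1.15 times WT in mesenchyme-like cells of Mettl3pKO and at 0.635 times WT in mesothelium-like cells, and the intervals of these ratios do not overlap (1.00 to 1.32 and 0.529 to 0.760). The difference between the classes was not tested, since there was 1 library per genotype. Without the sub-clusters led by another cell type the ratios were 1.13 (0.982 to 1.31) and 0.880 (0.715 to 1.08), and these intervals overlap and both include 1. Of the mesenchymal sub-clusters found in both libraries, sub-cluster 5 had a Barx1 ratio of 1.66 (1.13 to 2.43), and the others had intervals that include 1.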

How the results depend on the processing

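No paired analysis was possible because there was 1 library per genotype. The splits by proliferating and the removal of sub-clusters were chosen after seeing the data. Over all settings, 347 ratios of single factors stayed within the interval of the value reported, 66 left it, and Nkx2-5, the 1 factor past 1.5-fold to change direction, did so in cells that were not proliferating (1.35 in place of 0.515). Between the libraries in mesenchyme-like cells, ratios within the fold also crossed 1: in cells that were not proliferating those of Meox2 (0.868), Barx1 (0.967), Tcf21 (0.988) and Wt1 (1.01), in Xist cells that of Meox2 (0.9445), and that of Twist1 in proliferating cells (1.24), Xist cells (1.12) and cells of at least 13000 UMIs (1.09). The count of factors past 1.5-fold between Mettl3pKO and WT mesenchyme-like cells, 2, was 1 with Scrublet-marked cells kept (Tlx1). It was 3 with the stricter cell filter and in Xist cells, with Wt1 added at 0.653 and 0.446, and 3 in proliferating cells (Nkx2-5 0.274, Wt1 0.603, Meox2 1.71). In some settings with a count of 2 the factors were others: Barx1 (1.59) and Meox2 (1.61) in Y-linked cells, Tlx1 and Wt1 (0.631) in cells of at least 13000 UMIs, and Tlx1 and Twist1 (0.475) in cells that were not proliferating. In mesothelium-like cells the count of 2 was 0 in cells with 500 genes or more whose mitochondrial share was 10% or less, and 0 without the sub-clusters led by another cell type; it was 1 with Scrublet-marked cells kept, without the top 5% of doublet scores, in cells of at least 13000 UMIs, with the mean of per-cell levels, in Xist cells, in Y-linked cells and in proliferating cells, and 4 with no minimum of UMIs. Between the classes, the count of 7 in WT was 4 in cells of at least 13000 UMIs, and the count of 6 in Mettl3pKO was 3 in Xist cells and 3 in cells that were not proliferating. The shares of all genes past the fold given above belong to the main setting. No such share stands beside the counts of the other settings, so a change in a count cannot be read against one. The share of Col1a1-positive cells with 2 or more factors, 40.5% in Mettl3pKO and 40.45% in WT, was 63.97% and 48.3% without thinning and 9.22% and 11.1% at 2 UMIs or more of a factor. It was 27.01% in Mettl3pKO over Col1a1-positive cells of every cluster, and in WT 33.1% in cells of at least 13000 UMIs and 36.7% in Y-linked cells. Depth limits Nkx3-2, Nkx2-5 and the factors near 0 in mesothelium-like cells. The cause of these shifts was not tested.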
